A study of Mus musculus with 1279 samples.

Results

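Transforming growth factor beta (TGF-beta) is made by 3 ligand genes, received by 3 receptor genes and kept latent in the matrix with the help of a family of 4 binding protein genes, here called latency proteins, although Ltbp2 belongs to the family by structure and is not known to bind the latent ligand. These 10 genes, Tgfb1, Tgfb2, Tgfb3, Tgfbr1, Tgfbr2, Tgfbr3, Ltbp1, Ltbp2, Ltbp3 and Ltbp4, were taken by symbol out of 46517 genes counted in cells of the mouse heart, and all 10 were found. Each of the 1279 samples was 1 cell, its full-length cDNA having been sequenced on plates by the Smart-seq2 protocol, which tags no molecules. The study had compared fibroblasts and mural cells, the smooth muscle cells and pericytes of vessel walls, and its labels gave each cell a strain and a cluster from 1 to 8. Clusters 1 to 5 are placed among fibroblasts in the study's text, which regards cluster 1 as likely valve interstitial cells. Clusters 6 to 8 are given no name there and were taken as mural cells.

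All mice were males of 10 to 20 weeks on the C57BL6 background. The 581 C57BL6 cells were wild type and had been sorted with antibodies to PDGFRA and PDGFRB. The other strains, PdgfrbGFP with 364 cells (28.5% of all cells), Cspg4dsRED with 12.7% and Acta2GFP with 13.4%, carried fluorescent reporters driven by regulatory sequences of Pdgfrb, Cspg4 and Acta2, and were sorted on the reporter. Elastase had been added to the digestion of Acta2GFP hearts, and CD31-positive cells had been excluded. No label named an animal, so the counts of the cells of 1 strain on 1 side of a comparison were summed, and the sums of the strains served as replicates. Cluster means and strain ranges below rest on sums of 3 cells or more. Strain and sort cannot be told apart, and the cells of each reporter strain came from a single plate, while the C57BL6 cells came from 3.

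TGF-beta is secreted bound to its own propeptide, which keeps it inactive. The propeptide is coupled through disulfide bonds to a latent TGF-beta binding protein, and this complex is stored on fibrillin and fibronectin until integrins, proteases or thrombospondin release the ligand. The free ligand binds the type II receptor TGFBR2, which activates the type I receptor TGFBR1 and through it the SMAD proteins, while betaglycan, encoded by Tgfbr3, presents ligand to the pair. In the heart the pathway is known for valve formation and for the deposition of matrix by fibroblasts.

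Cells held 46268 to 1302397 counts on genes, with a median of 274504. The fibroblast marker list (Pdgfra, Dcn, Col1a1, Col1a2 and Lum) summed to means of 11878 to 14070 CPM (counts per 1000000 gene counts) in clusters 1 to 5, against 546 in cluster 7 and 1716 in cluster 8. The mural list (Rgs5, Notch3, Mcam, Des and Cspg4) summed to 51.6 to 351 CPM in clusters 1 to 5, 1693 in cluster 6, 7523 in cluster 7 and 9440 in cluster 8. Cluster 6 carried smooth muscle markers at 11449 CPM with few pericyte markers (268.3 CPM), cluster 7 both (12725 and 5006 CPM), and cluster 8 mostly pericyte markers (14466 CPM). Cluster 6 also held 6274 ± 5385 CPM (SD, n = 3 strains) of the fibroblast list, and its 3 C57BL6 cells alone held 12491 CPM, the level of a fibroblast cluster. The immune list reached at most 62.1 CPM in any cluster and the epicardial list 0.245 CPM. The endothelial list lay between 17.7 and 209.4 CPM, and its members differed. Cdh5 was at no more than 2.75 CPM, while Tek was at 81.1 to 187.98 CPM in clusters 2 to 5 and Pecam1 at 114.2 CPM in cluster 6 and 50.4 CPM in cluster 1. Cardiac muscle transcripts summed to 734 ± 756 CPM in cluster 6 and to 379 CPM or less elsewhere. In cluster 6 most of this sum was Tnnt2 (356 CPM) and Actc1 (345 CPM), whereas Myh6, Tnni3, Myl2 and Ryr2 (4.34, 6.24, 2.81 and 3.25 CPM) were lower there than in cluster 7 (16.2, 67.2, 41.8 and 11.1 CPM). The study names Actc1, with Eln, Itga8 and Ccn3, as enriched in a small group of heart smooth muscle cells positive for Sost and Cbr2. Actc1 is thus not particular to cardiac muscle here. The part of endothelial, immune and cardiac muscle transcripts in the values below was not tested.

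The promoters of 3 latency genes are shown because of their cluster means below. The mean of Ltbp1 was highest in cluster 6, that of Ltbp2 highest in cluster 1 and that of Ltbp4 lowest in cluster 7. The strain ranges of Ltbp1 in clusters 6 and 7 overlapped, as did those of Ltbp2 in clusters 1 and 4. The sequences are RefSeq's for GRCm38.p6, read 5′ to 3′ on the gene's strand, and end where the first transcript begins in RefSeq or GENCODE, whichever lies further upstream. Capitals mark the SMAD-binding element GTCTG on either strand. The Ltbp1 sequence is chr17:75005279-75005528 on the plus strand, the Ltbp2 sequence chr12:84876533-84876741 on the minus strand and the Ltbp4 sequence chr7:27337693-27337862 on the minus strand.
Ltbp1: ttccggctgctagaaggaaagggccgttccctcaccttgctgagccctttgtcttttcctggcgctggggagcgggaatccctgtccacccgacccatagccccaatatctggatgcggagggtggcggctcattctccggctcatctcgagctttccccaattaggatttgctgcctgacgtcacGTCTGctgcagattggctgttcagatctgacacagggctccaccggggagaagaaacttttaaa
Ltbp2: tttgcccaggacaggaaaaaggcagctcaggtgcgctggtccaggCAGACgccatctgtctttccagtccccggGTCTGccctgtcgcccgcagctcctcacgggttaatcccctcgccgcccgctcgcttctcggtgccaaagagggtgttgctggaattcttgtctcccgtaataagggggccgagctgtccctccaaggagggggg
Ltbp4: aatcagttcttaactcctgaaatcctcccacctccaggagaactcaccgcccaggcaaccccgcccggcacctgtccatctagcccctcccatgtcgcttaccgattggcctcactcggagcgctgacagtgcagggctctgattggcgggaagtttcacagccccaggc

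In these sequences the SMAD-binding element was found 1 time for Ltbp1, 2 times for Ltbp2 and 0 times for Ltbp4. It is a short motif, present in 42.2% of the 32851 RefSeq mouse promoters over the 250 bases before the start. The Ltbp1 sequence held a cyclic AMP response element (TGACGTCA), found in 1.55% of all promoters, just before its SMAD-binding element and not overlapping it. A GC box (GGGCGG on either strand), found in 32.7% of promoters, occurred 2 times for Ltbp4, 1 time for Ltbp2 and 0 times for Ltbp1. Over the full 250 bases before the RefSeq start it occurred 3 times for Ltbp4 and 2 times for Ltbp2. Not shown are another Ltbp1 promoter, with 2 SMAD-binding elements, and further Ltbp4 promoters, with 5 and 7 GC boxes. Promoters of 8 of the 10 genes were matched, and neither the AP-1 site (TGANTCA, 6.75% of promoters) nor the CArG box (1.47%) occurred in their 12 sequences of 250 bases. The motifs were chosen after the sequences had been seen, and a match describes letters only.

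**Figure D1:**
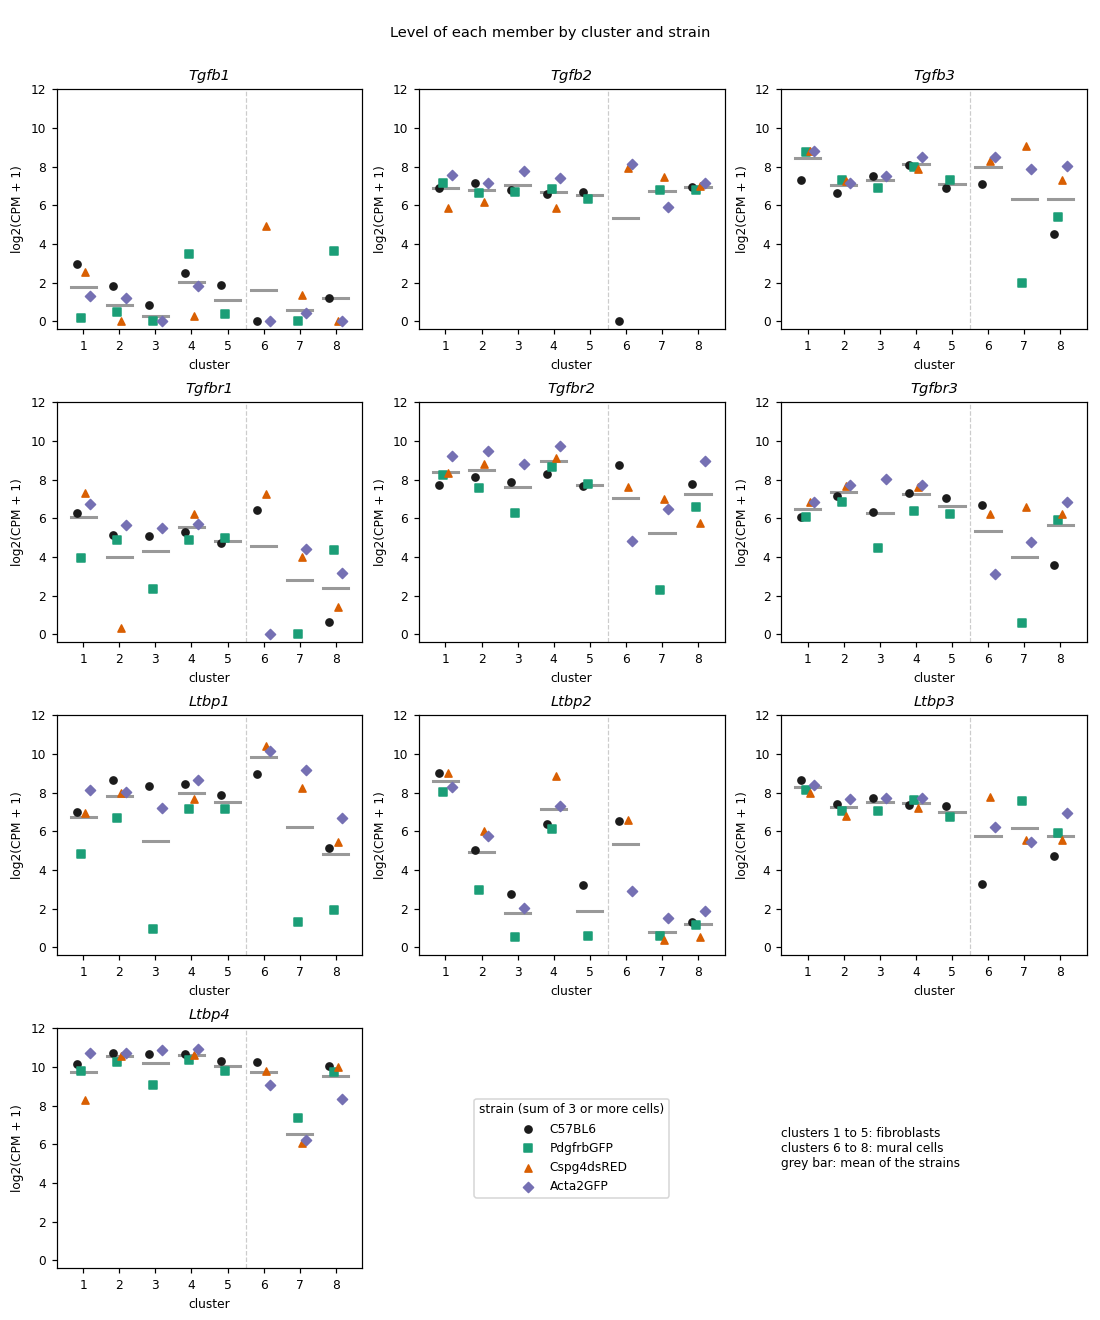
Level of each of the 10 genes in clusters 1 to 8, as log2(CPM + 1) of the summed cells of each strain (points) with the mean of the strains (grey bar). Ltbp4 lies high in all clusters but cluster 7, Ltbp2 is high in clusters 1 and 4, lower in clusters 3 and 5 and lowest in clusters 7 and 8, and Ltbp1 is highest in cluster 6.

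Among the ligands, Tgfb3 was the most abundant per length of transcript in 8 of 8 clusters by the mean over strains. Tgfb3 (chromosome 12, 86056745 to 86079041, minus strand; all gene coordinates are GENCODE M21 on GRCm38) made up between 50.9% of the ligand CPM per kb in cluster 8 and 81.3% in clusters 1 and 4. Its level was highest in cluster 1 at 374 ± 142.4 CPM (n = 4 strains) and in cluster 4 at 282.4 ± 56.98 CPM (n = 4), and lowest in cluster 8 at 120.6 ± 111.1 CPM (n = 4). In cluster 7 the strains were far apart, with 545 CPM in Cspg4dsRED, 234.8 CPM in Acta2GFP and 2.94 CPM in the 9 PdgfrbGFP cells. Clusters 6 and 7 (272.7 and 260.97 CPM) did not differ beyond this spread, and neither did clusters 2, 3 and 5 (136.7, 161.1 and 138.2 CPM). The order of the ligands was not the same in every strain. In cluster 8, Tgfb2 exceeded Tgfb3 per length in C57BL6 (21.05 against 6.49 CPM per kb) and PdgfrbGFP (19.05 against 12.1), which held most of its cells, and in cluster 7 it did so in PdgfrbGFP (19.2 against 0.870). No order between Tgfb2 and Tgfb3 could be read in these clusters. The shares of Tgfb3 cells at 10 CPM or more were 61.4% in cluster 1, 57.1% in cluster 4, 61.5% in cluster 6 and 59.3% in cluster 7, and 19.4% to 33.9% in the other clusters.

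Tgfb2 (chromosome 1, 186622792 to 186705989, minus strand), the ligand that depends most on betaglycan, had the smallest ratio of highest to lowest cluster mean of the 10 genes. Its mean lay between 91.7 CPM in cluster 5 and 175.3 CPM in cluster 6, and the strain ranges of all pairs of clusters overlapped except cluster 5 with cluster 8. Tgfb1 (chromosome 7, 25687002 to 25705077, plus strand), the ligand best known from immune cells and platelets, had the fewest counts of the 10 genes. It had 1394 counts in all 1279 cells, against 46871 for Tgfb2 and 79362 for Tgfb3, and its mean reached at most 9.84 ± 17.04 CPM, in cluster 6 (n = 3). Cells with 10 CPM or more of Tgfb1 were 1.69% to 6.87% of a cluster.

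Among the receptors, Tgfbr2 (chromosome 9, 116084293 to 116175360, minus strand) gave 56.98% to 66.3% of the receptor CPM per kb in each of the 8 clusters by the mean over strains. In Cspg4dsRED of cluster 8, Tgfbr3 exceeded it (11.3 against 6.58 CPM per kb). Its mean was highest in cluster 4 (534 ± 241.6 CPM, n = 4) and lowest in cluster 7 (72.8 ± 62.9 CPM, n = 3). Tgfbr3 (chromosome 5, 107106570 to 107289629, minus strand) had means of 90.7 to 167.8 CPM in clusters 1 to 5 and of 40.99 to 64.4 CPM in clusters 6 to 8. Tgfbr1 (chromosome 4, 47353222 to 47414931, plus strand) had the lowest mean of the 3 receptors in 7 of 8 clusters, nearly level with Tgfbr3 in cluster 1 (90.7 CPM) and above it in cluster 6 (61.4 CPM). Tgfbr1 had its highest means in cluster 1 (88.6 ± 60.2 CPM, n = 4) and cluster 6 (78.05 ± 75.1 CPM, n = 3) and its lowest mean in cluster 8 (7.48 ± 8.83 CPM, n = 4). All these strain ranges were wide. Those of Tgfbr1 in clusters 1 and 8 overlapped through PdgfrbGFP, which was at 14.7 CPM in cluster 1 and, against the order of the means, at 19.8 CPM in cluster 8.

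After each cell had been thinned to 50000 counts, both signalling receptors, Tgfbr1 and Tgfbr2, were seen in 43.6% of the 39 cells of cluster 6 (95% Wilson interval 29.3% to 59.02%) and 21 of the 70 cells of cluster 1 (20.5% to 41.5%). The share was 1.03% of cells in cluster 8 (0.282% to 3.66%) and 7.88% to 20.2% in the remaining clusters. Without thinning it was 48.6% in cluster 1. At least 1 ligand was seen in 87.2% of thinned cells of cluster 6, 56 of 70 cells of cluster 1 and 41.03% in cluster 8, and at least 1 latency protein in 87.2% of cells or more in each cluster. The intervals treat pooled cells as units, so they leave out the spread between strains, and reads were not tagged per molecule. In cluster 6, Tgfbr1 was seen in 75.8% of the 33 thinned Cspg4dsRED cells, 66.7% of the 3 C57BL6 cells and 0% of the 3 Acta2GFP cells.

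Among the latency proteins, Ltbp4 (chromosome 7, 27305136 to 27337692, minus strand), which is also needed for elastic fibre assembly, was by far the most abundant. It had 478472 counts and was detected in 97.8% of all cells. Its means lay between 812 and 1615 CPM in 7 clusters, and cluster 7 stood apart at 100.96 ± 55.4 CPM (n = 3), with a highest strain of 164.9 CPM below the lowest strain of any other cluster (317 CPM). Ltbp3 (chromosome 19, 5740904 to 5758532, plus strand), which acts in bone, teeth and the aortic wall, was highest in cluster 1 at 317 ± 66.1 CPM (n = 4), where the lowest strain (251.7 CPM) exceeded every strain sum of 3 cells or more in the other 7 clusters. That lowest strain was 3 Cspg4dsRED cells, 1 of which gave 87.3% of the counts. The other fibroblast clusters had means of 131.8 to 184.2 CPM and the mural clusters 62.8 to 101.4 CPM. The strain ranges of the 3 mural clusters overlapped each other, as did those of clusters 2 to 5.

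Ltbp2 (chromosome 12, 84783212 to 84876532, minus strand), a microfibril protein that, unlike its relatives, does not bind latent TGF-beta, varied most between clusters. Its level was 401 ± 137.3 CPM in cluster 1 (n = 4) and 193.1 ± 183.03 CPM in cluster 4 (n = 4), then 64.8 ± 50.5 CPM in cluster 6 (n = 3) and 38.9 ± 25.2 CPM in cluster 2 (n = 4). In clusters 3, 5, 7 and 8 the means were 3.13, 4.33, 0.870 and 1.45 CPM. Clusters 1 and 4 overlapped through Cspg4dsRED (461 CPM in cluster 4). Ltbp1 (chromosome 17, 75005568 to 75392512, plus strand), the classical carrier of latent TGF-beta, was highest in cluster 6 at 997 ± 443 CPM (n = 3) and lowest in cluster 8 at 45.2 ± 41.1 CPM (n = 4). Its fibroblast clusters ranged from 139.4 to 273.8 CPM, and cluster 7 from 1.47 CPM in PdgfrbGFP to 571 CPM in Acta2GFP.

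**Figure D2:**
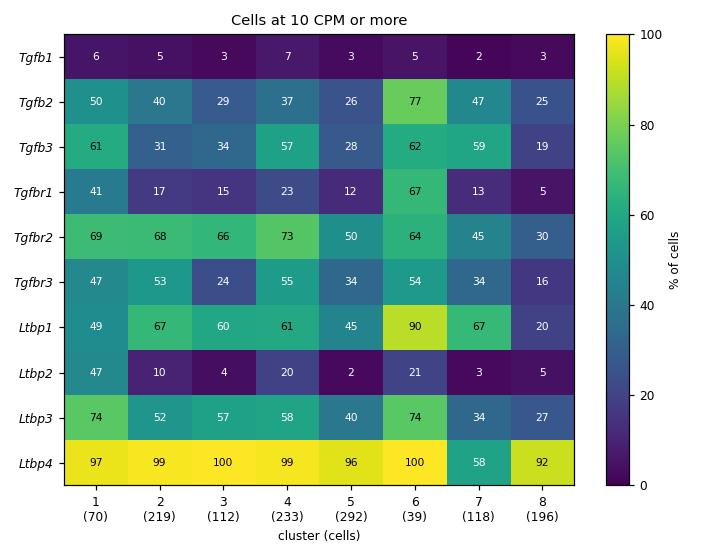
Share of the cells of each cluster with at least 10 CPM of each gene (colour and number, in percent), with the cells per cluster under the axis. Ltbp4 passes 10 CPM in 91.8% or more of the cells of every cluster except cluster 7 (57.6%), and Ltbp1 in 89.7% of cluster 6 and 19.9% of cluster 8, where cells are pooled over strains that differ in detection.

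Shares of cells pool the strains of a cluster, and detection was uneven over strains with either threshold. For Ltbp1, 24.2% of PdgfrbGFP cells reached 10 CPM, against 56.8% to 85.4% in the other strains. Cluster 8 was mostly PdgfrbGFP cells, and cluster 6 held none. Within cluster 8, Ltbp1 was seen in 14.4% of thinned PdgfrbGFP cells and 73.3% of thinned Acta2GFP cells. In Acta2GFP, 60.2% of cells held at least 1 count of Ltbp2 and 25.7% reached 10 CPM, against 17.8% to 20.5% and 7.42% to 10.4% in the other strains. In cluster 7, 17 of 33 Acta2GFP cells held Ltbp2 counts that summed to 22. For Ltbp2 the share at 10 CPM was 47.1% in cluster 1, 20.5% in cluster 6, 19.7% in cluster 4 and 10.05% in cluster 2, and 2.40% to 4.59% in clusters 3, 5, 7 and 8. Tgfbr1 reached 10 CPM in 66.7% of cells of cluster 6 and 41.4% of cluster 1, against 5.10% in cluster 8.

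**Figure D3:**
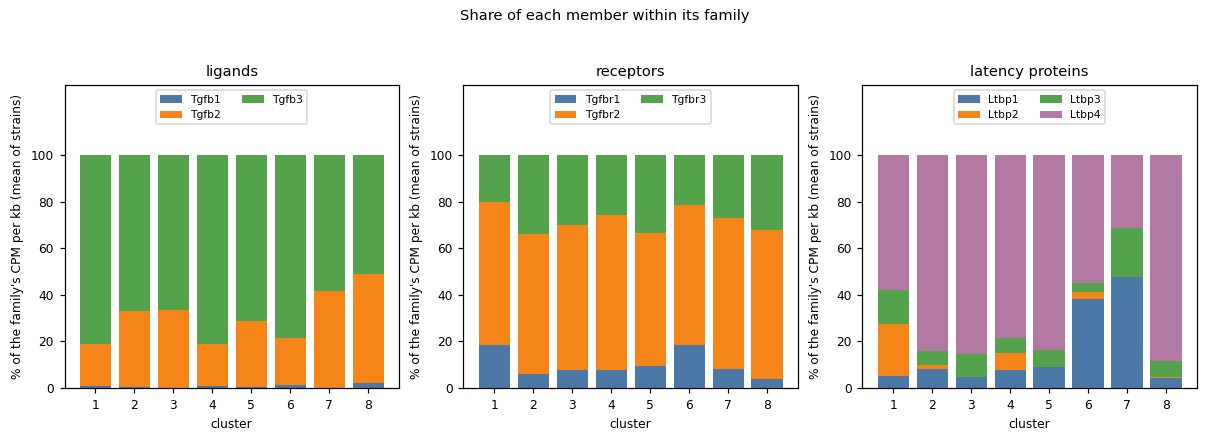
Mean share of each gene in the summed CPM per kb of its family (ligands, receptors, latency proteins) in clusters 1 to 8, averaged over strains. Tgfb3 and Tgfbr2 have the largest mean share of their families in each cluster, though not in every strain, and the mean share of Ltbp4 is lower in clusters 1, 6 and 7 (57.9%, 54.8% and 31.5%) than in the others.

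Per length of transcript, the 4 latency proteins summed to 319 CPM per kb in cluster 4, 281.7 in cluster 2 and 252.1 in cluster 1, and to 136.97 in cluster 8 and 53.2 in cluster 7. The receptors summed to 97.3 CPM per kb in cluster 4 and 16.98 in cluster 7. The composition of the latency proteins differed between clusters more than that of the receptors. Ltbp4 made up 78.7% to 85.3% of the latency CPM per kb in clusters 2 to 5 and 88.5% in cluster 8. In cluster 1 it made up 57.9% with Ltbp2 at 22.4%, and in cluster 6 it made up 54.8% with Ltbp1 at 38.1%. In cluster 7 Ltbp1 averaged 47.4% ± 41.2 (SD, n = 3) and ran from 0.3% in 1 strain to 76.8% in another, so that no order between Ltbp1 and Ltbp4 could be read there.

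Fibroblasts (clusters 1 to 5) were then compared with mural cells (clusters 6 to 8) over 4 strains. The latency proteins Ltbp2, Ltbp3 and Ltbp4 and the receptor Tgfbr2 were higher in fibroblasts without overlap of the strains, but 0 of the 10 genes passed an adjusted p of 0.05 in edgeR, where 5.93% of the 15117 genes tested did. At an unadjusted p below 0.05, edgeR had 5 of 10, against 17% of all genes, DESeq2 called 3 of 10 at its adjusted p, against 13.2%, and limma 3, against 9.22%. The 4 genes without overlap stood against 9.06% of all genes that were higher in fibroblasts in this way. The median log2 fold change was 0.99 over the 10 genes and -0.02 over all genes tested.

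Ltbp3 was at 177.1 CPM in C57BL6, 155.96 CPM in PdgfrbGFP, 147.7 CPM in Cspg4dsRED and 232.9 CPM in Acta2GFP fibroblasts, and at 34.9, 72.1, 99.1 and 70.7 CPM in the mural cells of the same strains. Every fibroblast sum lay above every mural sum, and the smallest gap within a strain was that of Cspg4dsRED. The log2 fold change was 1.35 ± 0.35 (SE, n = 4 strains), with an adjusted p of 0.0506 in edgeR and 0.00495 to 0.233 over the alternatives.

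Ltbp2 was at 52.1 CPM in C57BL6, 48.8 CPM in PdgfrbGFP, 273.3 CPM in Cspg4dsRED and 140 CPM in Acta2GFP fibroblasts, and at 12.3, 1.12, 29.2 and 2.54 CPM in mural cells. The sides did not overlap, but the highest fibroblast sum was several times the lowest. In C57BL6, 89.6% of the mural counts came from 1 cell. In edgeR the log2 fold change was 3.49 ± 0.98 (SE, n = 4) with an adjusted p of 0.0695. With the strain as a block the edgeR value was 4.11, with an adjusted p of 0.0399, in a fit that called 4.81% of all genes. Without clusters 1 and 6 it was 6.26, with an adjusted p of 0.00386, in a fit that called 7.27%. The antisense gene D030025P21Rik overlaps 9.33% of the Ltbp2 exon bases and had 1513 counts, against 23087 for Ltbp2. Reads shared by genes on opposite strands could not be assigned, since the strand setting of the counting is not given in the sources used here.

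Ltbp4 was at 1518 CPM in C57BL6, 1060 CPM in PdgfrbGFP, 1499 CPM in Cspg4dsRED and 1795 CPM in Acta2GFP fibroblasts, and at 1056, 789, 497 and 195.5 CPM in mural cells. The sides nearly touched at PdgfrbGFP fibroblasts and C57BL6 mural cells, and the gap was widest in Acta2GFP, where 64.7% of the mural cells belonged to cluster 7. The log2 fold change was 1.17 ± 0.45 (SE, n = 4), with an adjusted p of 0.199 in edgeR. Ltbp1 showed no common direction. It was at 318, 116.7, 248.7 and 303 CPM in fibroblasts and at 88.7, 2.72, 574 and 469 CPM in the mural cells of C57BL6, PdgfrbGFP, Cspg4dsRED and Acta2GFP, with a log2 fold change of -0.19 ± 1.00 (SE, n = 4) and an adjusted p of 0.959 in edgeR. With the strain as a block, its edgeR value was 1.02. The mural side was low where cluster 8 made up most mural cells (92.97% in PdgfrbGFP, 89.2% in C57BL6) and high where clusters 6 and 7 did. PdgfrbGFP was, however, low in both of its mural clusters (1.47 CPM in cluster 7, 2.86 CPM in cluster 8), and the part of cluster make-up in the spread was not tested.

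Tgfbr2 was at 257.04 CPM in C57BL6, 266.5 CPM in PdgfrbGFP, 522 CPM in Cspg4dsRED and 699 CPM in Acta2GFP fibroblasts, and at 253.3, 85.4, 133.7 and 215.4 CPM in mural cells. The sides did not overlap, yet the C57BL6 values were nearly equal. The log2 fold change was 1.32 ± 0.41 (SE, n = 4), with an adjusted p of 0.104 in edgeR. Tgfbr3 was at 130.9, 81.98, 176.9 and 196.3 CPM in fibroblasts and 21.9, 53.1, 84.5 and 53.6 CPM in mural cells, in the same order of strains. It was higher in fibroblasts in 4 of 4 strains, with an overlap only between PdgfrbGFP fibroblasts and Cspg4dsRED mural cells. Its log2 fold change was 1.42 ± 0.42 (SE, n = 4), with an adjusted p of 0.0887 in edgeR and 0.0244 to 0.344 over the alternatives. Tgfbr1 had a log2 fold change of 0.82 ± 0.59 (SE, n = 4), with an adjusted p of 0.587 in edgeR.

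The ligands showed no difference beyond the spread of the strains. Tgfb3 was at 165.98, 213.5, 204.9 and 281.9 CPM in fibroblasts and at 34.7, 37.2, 402 and 255.1 CPM in mural cells, in the order C57BL6, PdgfrbGFP, Cspg4dsRED and Acta2GFP. The first 2 strains were thus higher in fibroblasts, Cspg4dsRED was higher in mural cells and Acta2GFP was nearly even. The log2 fold changes were 0.27 ± 0.68 for Tgfb3, -0.17 ± 0.33 for Tgfb2 and -1.35 ± 1.24 for Tgfb1 (SE, n = 4), with adjusted p of 0.914, 0.880 and 0.693 in edgeR. Exons of Tgfb3 overlap the opposite-strand transcript Gm37804 over 4.82% of their bases.

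**Figure D4:**
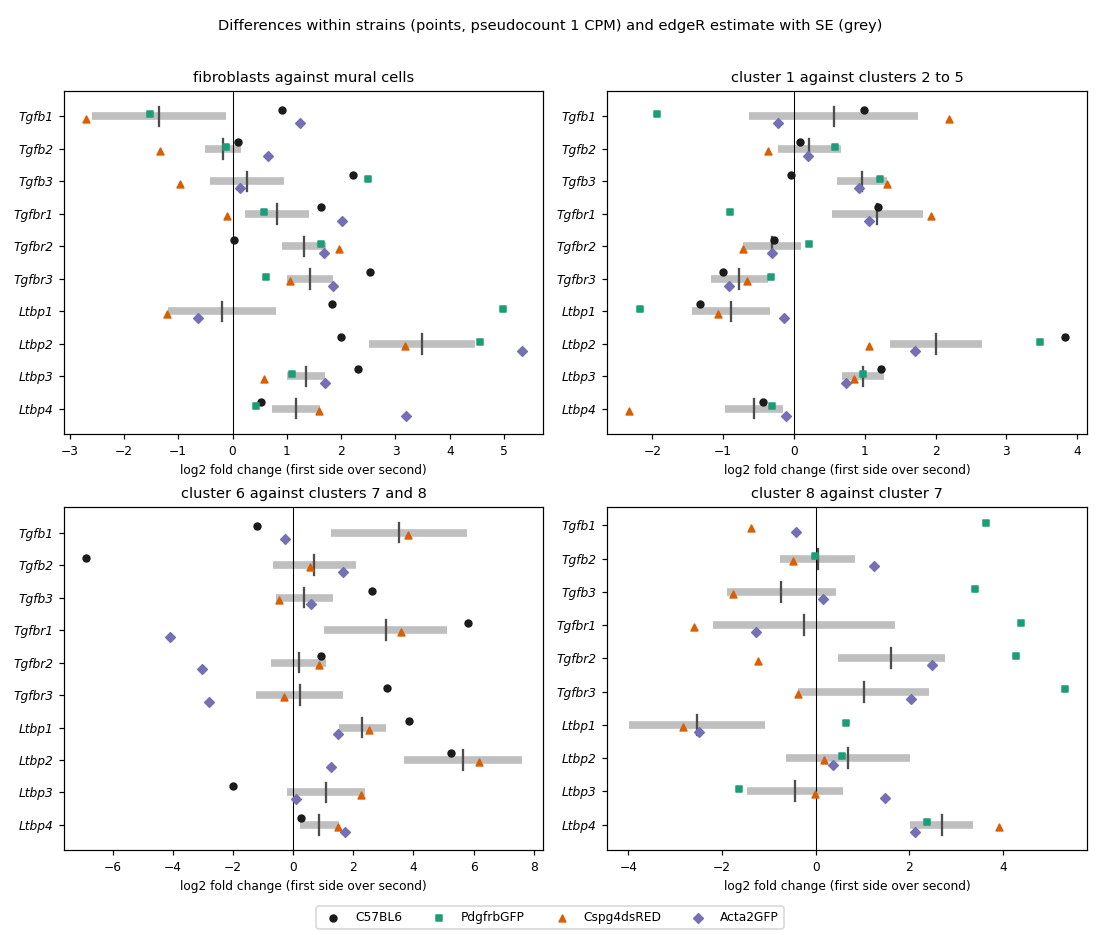
Log2 fold change of each gene within each strain (points, CPM with a pseudocount of 1) and the edgeR estimate with its SE (grey), for fibroblasts against mural cells and for clusters 1, 6 and 8 against their neighbours. Ltbp2 and Ltbp3 lie to the right of 0 in 4 of 4 strains in both upper panels, and Ltbp1 and Ltbp4 in the lower panels are to the right in 3 of 3 strains for cluster 6 and cluster 8, respectively.

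Cluster 1 was compared with fibroblast clusters 2 to 5 over 4 strains. It carried the valve interstitial list (Wif1, Comp, Fmod, Thbs1 and Cyp2e1) at 7001 ± 520 CPM (n = 4), against at most 967 CPM in the other clusters. Ltbp2 and Ltbp3 were higher in cluster 1 without overlap of the strains, as were 2.61% of all genes. None of the 10 genes passed in edgeR (0 of 10, against 1.33% of 13201 genes), 3 had an unadjusted p below 0.05, against 8.87% of genes, DESeq2 called 1, against 5.3%, and limma 0, against 2.36%. The median log2 fold change was 0.39 over the 10 genes and -0.03 over all genes.

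Ltbp2 was at 512 CPM in C57BL6, 259.3 in PdgfrbGFP, 526 in the 3 cells of Cspg4dsRED and 308 in Acta2GFP in cluster 1, and at 35.1, 22.4, 252.3 and 93.6 CPM in clusters 2 to 5. The groups were separated by little, because Cspg4dsRED fibroblasts of clusters 2 to 5 were high as well. The log2 fold change was 2.00 ± 0.65 (SE, n = 4), with an adjusted p of 0.235 in edgeR. Ltbp3 was at 399, 276.4, 251.7 and 340 CPM in cluster 1 and at 168.9, 140.9, 139.1 and 203.1 CPM in clusters 2 to 5, in the same order of strains. Its difference was even across strains, although 1 cell gave 87.3% of the Ltbp3 counts of the 3 Cspg4dsRED cells of cluster 1. The log2 fold change was 0.97 ± 0.30 (SE, n = 4), with an adjusted p of 0.190 in edgeR, and 0.00435 to 0.700 over the alternatives. Tgfb3 was at 161.1, 434, 457 and 445 CPM in cluster 1 and 166.2, 185.8, 183.9 and 236.2 CPM in clusters 2 to 5. It was higher in 3 strains and not in C57BL6, with a log2 fold change of 0.95 ± 0.35 (SE, n = 4) and an adjusted p of 0.360 in edgeR. Of the Tgfb3 counts of Cspg4dsRED in cluster 1, 81.4% came from 1 cell. Ltbp1, Ltbp4, Tgfbr2 and Tgfbr3 had values below 0, from -0.31 for Tgfbr2 to -0.89 for Ltbp1. Ltbp1, Ltbp4 and Tgfbr3 were lower in cluster 1 in 4 of 4 strains, with overlapping ranges, and Tgfbr2 in 3 of 4.

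Cluster 6 was compared with clusters 7 and 8 over 3 strains, since PdgfrbGFP gave no cell of cluster 6. It carried the list of large-vessel smooth muscle (Sost, Cbr2, Itga8, Ccn3 and Eln) at 3476 ± 1785 CPM (n = 3), against at most 417 CPM elsewhere. Ltbp1 and Ltbp2 were higher in cluster 6 without overlap, as were 3.28% of genes. In edgeR 0 of 10 passed, against 0.033% of 12117 genes, and 2 had an unadjusted p below 0.05, against 5.74%, while DESeq2 called 1 (3.12% of genes), limma 0 (0.0413%) and edgeR with the strain as a block 1 (0.883%). All 10 fitted log2 fold changes were above 0, as were 41.8% of all genes, with a median of 0.99 against -0.32 over all genes. The strains did not share this direction, since only Ltbp1, Ltbp2 and Ltbp4 were higher in 3 of 3 strains, and Tgfb1 and Tgfbr3 were higher in 1 of 3. In the 3 Acta2GFP cells of cluster 6, Tgfbr1, Tgfbr2 and Tgfbr3 lay below clusters 7 and 8, at -4.09, -3.04 and -2.79 on the log2 scale, and Tgfb2 had no count in the 3 C57BL6 cells.

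Ltbp1 was at 500 CPM in C57BL6, 1348 in Cspg4dsRED and 1144 in Acta2GFP in cluster 6, against 33.6, 233.7 and 402 CPM in clusters 7 and 8. In C57BL6 the other side was 33 cells of cluster 8 and 1 cell of cluster 7. The strain ranges of clusters 6 and 7 by themselves overlapped, since Ltbp1 was at 571 CPM in the Acta2GFP cells of cluster 7. The lowest of the cluster 6 sums was that of the 3 C57BL6 cells, where 1 cell gave 99.6% of the Ltbp1 counts. The log2 fold change was 2.31 ± 0.79 (SE, n = 3), with an adjusted p of 0.540 in edgeR, and 2.73 with the strain as a block, with an adjusted p of 0.00233. Ltbp2 was at 93.1, 94.9 and 6.48 CPM in cluster 6 and at 1.44, 0.326 and 2.14 CPM in clusters 7 and 8, in the same order of strains. The same C57BL6 cell gave 100% of that strain's Ltbp2 counts in cluster 6. Its log2 fold change was 5.64 ± 1.96 (SE, n = 3), with an adjusted p of 0.552 in edgeR and 0.00109 in DESeq2, whose value was 5.92. Fibroblast markers were at fibroblast level in the C57BL6 cells of cluster 6, and their part in these values was not tested.

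Cluster 8 was compared with cluster 7 over PdgfrbGFP, Cspg4dsRED and Acta2GFP, and 9 of the 10 genes had enough counts for the test. Ltbp4 alone was higher in cluster 8 without overlap, as were 9.08% of genes. In edgeR 0 of 9 passed, against 0.194% of 11867 genes, and 1 had an unadjusted p below 0.05, against 6.88%, while DESeq2 and limma called 0, against 3.51% and 0.379%. The median log2 fold change was 0.04 over the 9 genes and 0.18 over all genes. Ltbp4 was at 857 CPM in PdgfrbGFP, 1006 in Cspg4dsRED and 320 in Acta2GFP in cluster 8, and at 164.9, 65.6 and 72.4 CPM in cluster 7. All cluster 8 sums lay above all cluster 7 sums, with a log2 fold change of 2.69 ± 0.68 (SE, n = 3) and an adjusted p of 0.173 in edgeR, and of 0.0173 with no filter on low counts, a fit that called 0.855% of genes. Ltbp1 was at 2.86, 42.1 and 101.3 CPM in cluster 8 and at 1.47, 305 and 571 CPM in cluster 7. It was lower in cluster 8 in 2 of 3 strains and near 0 in both clusters of PdgfrbGFP, with a log2 fold change of -2.53 ± 1.46 (SE, n = 3) and an adjusted p of 0.872 in edgeR.

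Each of fibroblast clusters 2 to 5 was compared with the other 3. In edgeR 0 of 10 genes passed in any of the 4 comparisons, as did 0% of all genes in each, and 1, 1, 2 and 1 genes had an unadjusted p below 0.05 in clusters 2, 3, 4 and 5, against 4.62%, 6.05%, 4.75% and 3.89% of all genes. DESeq2 called 0, 1, 2 and 0 of the 10, against 1.29%, 2.71%, 1.38% and 0.829% of all genes, and limma called 0 in each, against 0%, 0.0135%, 0.106% and 0%. The fitted log2 fold changes were above 0 for 9 of the 10 genes in cluster 4 (median 0.33), where 50.4% of all genes were, and for 0 of 10 in cluster 5 (median -0.32), where 51.7% were. In clusters 2 and 3 they were above 0 for 3 of 10 each (medians -0.13 and -0.24), where 50.1% and 45.2% of all genes were. Cluster 4 had Tgfb3 and Ltbp2 above the other 3 clusters without overlap of the strains, as were 1.95% of genes. Its Tgfb3 was at 268.6 CPM in C57BL6, 256.5 CPM in PdgfrbGFP, 238.8 CPM in Cspg4dsRED and 366 CPM in Acta2GFP, against 125.7, 155.1, 131.4 and 148.1 CPM in clusters 2, 3 and 5. Every strain was higher in cluster 4, with a log2 fold change of 1.01 ± 0.23 (SE, n = 4) and an adjusted p of 0.272 in edgeR and of 0.00160 in DESeq2. Ltbp2 was at 83.6, 67.9, 461 and 160 CPM in cluster 4 and at 15.97, 2.61, 52.4 and 48.4 CPM in the others, with a log2 fold change of 2.74 ± 0.86 (SE, n = 4) and an adjusted p of 0.647 in edgeR and of 0.0462 in DESeq2.

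Ltbp2 was low in clusters 3 and 5. In cluster 3 it was at 5.82 CPM in C57BL6, 0.463 in the 7 PdgfrbGFP cells and 3.11 in Acta2GFP, against 40.5, 23.1 and 108.8 CPM in clusters 2, 4 and 5. The sides did not overlap for Ltbp2 and for Tgfb1 (0.270 against 3.00 CPM), 2 of the 10 genes, where 13.6% of all genes were lower in cluster 3 in this way. For Ltbp2 the log2 fold change was -4.04 ± 1.40 (SE, n = 3), with an adjusted p of 0.488 in edgeR and of 0.0141 in DESeq2. In cluster 5 it was at 8.18 CPM in C57BL6 and 0.475 CPM in PdgfrbGFP, against 47.4 and 38.6 CPM in clusters 2 to 4, with a log2 fold change of -3.29 ± 1.25 (SE, n = 2). In that comparison of 2 strains, 6 of the 10 genes were lower in cluster 5 without overlap, where 19.8% of all genes were. Cluster 2 had Tgfb3 at 97.2, 157.7, 150.8 and 140.9 CPM against 189.04, 194.6, 207.7 and 310 CPM in the summed cells of clusters 3 to 5 of C57BL6, PdgfrbGFP, Cspg4dsRED and Acta2GFP. These ranges did not overlap, as for 2.73% of genes lower in cluster 2, and the log2 fold change was -0.68 ± 0.27 (SE, n = 4), with an adjusted p of 0.952 in edgeR. The other side held cluster 4 with its higher Tgfb3, and by cluster means Tgfb3 in cluster 2 (136.7 CPM) was not apart from clusters 3 and 5 (161.1 and 138.2 CPM).

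Over the 27 sums of a cluster and strain with 3 cells or more, the levels of Tgfbr2 and Tgfbr3 followed each other most closely of the 45 pairs (Pearson r = 0.864 on log2(CPM + 1)). The lowest r was that of Tgfb2 with Tgfbr1 (-0.20), and Tgfb2 had its highest with Ltbp3 (0.589). Among 10326 genes with a mean of at least 10 CPM, the gene most like Tgfbr2 was C1qtnf7, at r = 0.903, which was also among the 3 most like Tgfbr3, at r = 0.867. The 3 genes most like Ltbp1 were Tgm2, a transglutaminase that crosslinks matrix (r = 0.854), Jcad (0.852) and Col4a5, a basement membrane collagen chain (0.851). Those most like Ltbp2 were Fam19a5 (0.827), Pamr1 (0.826) and Nedd9 (0.822), and those most like Ltbp4 were Cp (0.847), Nfic (0.843) and Col6a2, a chain of collagen VI (0.835). Ltbp3 was closest to Xpnpep1 (0.813). Tgfb3 was closest to Gm37804 (0.965), which shares exon bases with it, then to Vim (0.852) and Rab1a (0.807). Tgfb2 was closest to Psmd8 (0.914), Tgfbr1 to Rarg (0.829) and Tgfb1 to Atpaf1 (0.734). The 27 sums share strains, plates and depth, and a best match among so many genes has a high r by its selection.

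Of the pathway outside the 10 genes, 5 lists were counted in the same fits. In fibroblasts against mural cells, 3 of 5 proteoglycans and matrix proteins that bind TGF-beta rose in fibroblasts in edgeR, where 5.93% of all genes passed. Dcn, decorin, was at 5405 ± 1056 against 647 ± 380 CPM (SD, n = 4 strains), with a log2 fold change of 3.06 and an adjusted p of 0.00476 in edgeR. Bgn, biglycan, was at 4156 ± 329 against 1682 ± 504 CPM (adjusted p 0.0162 in edgeR), and Fmod, fibromodulin, at 250 ± 165.7 against 20.1 ± 21.4 CPM (adjusted p 0.0162 in edgeR). Fmod was at 1892 CPM in cluster 1 and at 52.5 ± 34.2 CPM in clusters 2 to 5. Dcn was also in the fibroblast marker list, so its difference is no separate evidence. Of 12 genes commonly induced by TGF-beta, 3 rose in fibroblasts and 2 fell. Tgfbi, a matrix adhesion protein, was at 429 ± 107.6 against 6.42 ± 4.01 CPM (log2 fold change 6.02, adjusted p 6.51e-04 in edgeR), and Col1a1, of the same marker list, and Timp1, an inhibitor of metalloproteinases, rose by 2.35 and 5.01 on the log2 scale. The genes that fell were the smooth muscle genes Acta2, at 225.9 ± 196.7 against 2832 ± 2229 CPM, and Tagln, at 58.4 ± 48.3 against 1199 ± 1020 CPM. Smooth muscle cells are part of the mural side, so the differences of Acta2 and Tagln are no separate evidence either.

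In the storage and activation list, 1 of 12 tested genes rose in fibroblasts. It was Fbn2, fibrillin-2, at 5.34 ± 4.10 CPM in fibroblasts, with at most 1 count in the mural sum of any strain (adjusted p 0.0192 in edgeR). The 6 accessory receptors and antagonists at the membrane had 0 genes that passed in edgeR (5.93% of all genes), 2 with an unadjusted p below 0.05 (17%), and 0 called by DESeq2 (13.2%) or limma (9.22%). The 16 intracellular transducers and inhibitors had 0 in edgeR, 3 with an unadjusted p below 0.05, 3 called by DESeq2 and 1 by limma, against these same shares of all genes. Their median log2 fold changes were 0.75 and 0.54. With the strain as a block, where 4.81% of all genes were called, edgeR called 1 of the 16, Pmepa1, an inhibitor of SMAD signalling, at 1.52 with an adjusted p of 0.0447. The medians of the other lists were 0.07 for storage and activation, 1.88 for proteoglycans and 0.37 for induced genes.

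In cluster 1 against clusters 2 to 5, Thbs1, thrombospondin 1, which activates latent TGF-beta, rose as 1 of 12 genes of the storage and activation list, where 1.33% of all genes passed. It was at 1621 ± 903 against 162.6 ± 54.3 CPM (n = 4), with a log2 fold change of 3.29 and an adjusted p of 0.00298 in edgeR. Fmod rose as 1 of 5 proteoglycans, at 1892 ± 393 against 52.5 ± 34.2 CPM (adjusted p 0.00197 in edgeR), and both belong to the valve marker list, so their difference is no separate evidence. Cd109, a co-receptor that restrains TGF-beta signalling, rose as 1 of 6 accessory receptors, at 182.3 ± 251.1 against 6.06 ± 3.13 CPM (adjusted p 0.0484 in edgeR), and was not called with the strain as a block. It ran from 14.2 to 552 CPM over the strains of cluster 1, so its mean rests on the highest of them. Of 16 transducers, 0 passed in edgeR, at an unadjusted p below 0.05, in DESeq2 or in limma. Of 12 induced genes, 0 passed in edgeR and limma, 2 had an unadjusted p below 0.05 (8.87% of all genes) and 2 were called by DESeq2 (5.3%). With the strain as a block, where 0.742% of all genes were called, 1 induced gene was, Postn, periostin, at 1.58 with an adjusted p of 0.0452.

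In cluster 6 against clusters 7 and 8, 0 of the 48 genes tested from the 5 lists passed in edgeR, DESeq2 or limma, against 0.033%, 3.12% and 0.0413% of all genes, and 8 had an unadjusted p below 0.05 in edgeR, against 5.74%. With the strain as a block, where 0.883% of all genes were called, edgeR called 3 of 5 proteoglycans, Bgn at 1.43, Dcn at 1.94 and Aspn, asporin, at -2.47, and 3 of 11 induced genes, Acta2 at 1.29, Tagln at 1.43 and Col1a1 at 2.74. Dcn and Acta2 were higher in cluster 6 in 2 of 3 strains. Dcn and Col1a1 are in the fibroblast marker list, which was itself higher in cluster 6 (6274 CPM) than in clusters 7 and 8 (546 and 1716 CPM), so their differences are no separate evidence. The same holds for the smooth muscle genes Acta2 and Tagln, since the smooth muscle list was at 11449 CPM in cluster 6, 12725 in cluster 7 and 1510 in cluster 8. In cluster 8 against cluster 7, Postn rose as 1 of 11 induced genes, at 2185 ± 275.8 against 90.6 ± 109.1 CPM (n = 3), with a log2 fold change of 4.60 and an adjusted p of 0.0407 in edgeR. With the strain as a block, where 0.691% of all genes were called, 4 of these 11 genes were, Postn and Col1a1 above 0 and Tagln and Acta2 below 0. The fibroblast list, which holds Col1a1, was at 1716 CPM in cluster 8 and 546 CPM in cluster 7. Acta2 and Tagln are smooth muscle genes, and the smooth muscle list was at 1510 and 12725 CPM. The differences of Col1a1, Acta2 and Tagln are thus no separate evidence. Of 9 storage and activation genes, the block called 1, Fn1, fibronectin, at 4.37 (adjusted p 0.0232 in edgeR). Of the 45 genes tested from the 5 lists, edgeR called 1 at its adjusted p (0.194% of all genes) and 10 at an unadjusted p below 0.05 (6.88%), DESeq2 called 4 (3.51%) and limma 3 (0.379%). Among clusters 2, 3, 4 and 5, where edgeR called 0% of all genes, it called 0 of the 50 to 52 genes of these lists in each comparison, and 7, 7, 6 and 3 at an unadjusted p below 0.05, against 4.62%, 6.05%, 4.75% and 3.89% of all genes. DESeq2 called 2, 3, 3 and 1 of them, against 1.29%, 2.71%, 1.38% and 0.829%, and limma 0.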

How the data were processed

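Single cells of the mouse heart were sequenced by Smart-seq2, and the table deposited by the authors holds raw counts of reads for each gene in each cell, not normalized. Per the study's methods and processing notes, the authors demultiplexed with bcl2fastq, trimmed with Trim Galore, mapped to GRCm38/mm10 with TopHat2 over Bowtie1 or Bowtie2 (which of them is not given for these cells) and counted genes with featureCounts of Subread. They also named a removal of doublets with samtools, the meaning of which is not given in the sources used here, nor are the annotation release and the strand setting. They excluded low-quality cells, cells with high gene numbers as possible doublets, and endothelial and immune cells, and made the clusters with pagoda2 from these same counts, so genes that differ between clusters were partly used to define them. Read losses or gains at overlapping genes carry into the values.

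No cell was left out here and no doublet caller was run. ERCC spike-ins (92 features, 1.82% of counts) were kept out of library sizes. Of 46517 genes, 46005 matched GENCODE M21. Counts were summed per strain and side (at least 3 cells on each) and tested over all genes with edgeR 4.0.16 (R 4.3.3), quasi-likelihood F test, TMM, filterByExpr with a minimum count of 10 and Benjamini-Hochberg adjustment at 0.05, two-sided. The SE was taken from the fold change and F. CPM is per 1000000 gene counts, CPM per kb uses merged exon length, and log2 values within strains use a pseudocount of 1 CPM. The edgeR step was tested on simulated data. No columns were identical.

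The 10 genes and the lists were chosen with earlier results of these data known. Named genes were all 10 members, list genes past the threshold (at most 5 per list and comparison) and the 3 genes most correlated with each member. Genes called only under the block, and Gm37804 and other overlapping genes, were added after their values were seen. Ctgf stood for Ccn2. The strain paired the 2 sides: deviations of fibroblast and mural sums from their group means correlated within strains (r = 0.157, 0.193, 0.118 and 0.218 over 10318 genes), although Cspg4dsRED mural sums correlated more with Acta2GFP fibroblasts (r = 0.193) than with their own strain, and both sides came from hearts of the same strain. The reported edgeR test did not use this pairing, which only the strain as a replicate block did. No label shows that strains were sampled more than 1 time. The reported p-values thus measure the spread of unpaired sums, 1 per strain and side, and not of differences within strains. Alternatives were DESeq2 1.42.0, its size factors in edgeR, limma 3.58.1 on equally weighted cells, no filter, the strain as a replicate block, plates as units, at least 10 cells per sum, each strain left out, and clusters 1 and 6 left out. Cluster 6 was also tested against cluster 7 alone. A few values that involve genes outside the list are not reported here.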

Additional observations from a re-analysis of the deposited data

Results flagged for a closer look

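In 3 of the 60 groups of 4 strain values, 1 strain lay far from the other 3 by Dixon's criterion (gap over range above 0.829), which chance does in about 1 of 20 groups. Tgfb1 in cluster 8 was at 11.49 CPM in PdgfrbGFP and at 0, 0 and 1.36 CPM in the others, and 92.5% of those PdgfrbGFP counts came from 1 cell. Tgfb2 in mural cells was at 187.8 CPM in Cspg4dsRED and at 104.1, 106.3 and 110 CPM in the others. Tgfb3 in cluster 1 was at 161.1 CPM in C57BL6 and at 434, 445 and 457 CPM in the others.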

How the results depend on the processing

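Of 230 alternative values of 22 log2 fold changes, 17 passed the threshold newly, 7 turned and the others kept their direction and side of it. The count of genes called among the 10 stayed at 0 in 68 of 79 alternative counts. In fibroblasts against mural cells it became 3 with DESeq2, 3 with limma, 1 with the strain as a replicate block (Ltbp2), 1 with plates as units (Ltbp3) and 2 without clusters 1 and 6 (Ltbp2 and Ltbp3). In cluster 1 it became 1 with DESeq2 (Ltbp3). In cluster 6 it became 1 with DESeq2 (Ltbp2) and 1 with the replicate block (Ltbp1), in cluster 8 against cluster 7 it became 1 with no filter (Ltbp4), in cluster 3 it became 1 with DESeq2 and in cluster 4 it became 2 with DESeq2. The block changed no other call. Leaving out each strain gave 0 throughout, from 0 to 0, and could not be done for cluster 5 with its 2 strains.

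The turned values were Tgfb2 in fibroblasts against mural cells without Cspg4dsRED (0.17), Tgfb3 without PdgfrbGFP (-0.10), and Ltbp1 with limma (1.42), with the replicate block (1.02), without Acta2GFP (0.07), without Cspg4dsRED (0.37) and without clusters 1 and 6 (0.60). Over the strains left out in turn, these values ran from -0.47 to 0.17 for Tgfb2, from -0.10 to 0.99 for Tgfb3 and from -0.64 to 0.37 for Ltbp1. The cause was not tested. The calls over all genes in the 8 comparisons ran, over settings, from 409 to 1926 in fibroblasts against mural cells (896 as reported), from 26 to 689 in cluster 1 (1.33% of genes as reported), from 0 to 341 in cluster 6 (4), from 0 to 380 in cluster 8 against cluster 7 (23), and from 0 to 387 in cluster 3 (0). In clusters 2, 4 and 5 they ran from 0 to 1.29%, 1.38% and 0.829% of genes, the highest with DESeq2 (0 as reported). The comparisons rest on 2 to 4 strains, with few cells in some sums and no molecular identifiers. Tgfb1 had the widest SE of the 10 genes in fibroblasts against mural cells (1.24), and the part of depth in it was not tested.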

Other observations

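The C57BL6 cells came mostly from a pair of plates, which gave values within 1 strain and sort. In clusters 2, 3, 4 and 5, Ltbp1 was at 513, 361, 402 and 305 CPM on the first plate and at 236.1, 232.03, 274.96 and 150.6 CPM on the second. It was thus higher on the first plate in 4 of 4 clusters, by 1.11, 0.64, 0.55 and 1.02 on the log2 scale. Ltbp4 was higher on the first plate in the same 4 clusters, by 0.16, 0.80, 0.51 and 0.40, and Ltbp3 in 3 of 4, by 0.30, -0.22, 1.19 and 1.00. No animal was named for either plate, and these differences were not tested.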
